A study of Mus musculus with 8 samples.

Results

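Mast cells are tissue leukocytes that store histamine and a set of proteases in their granules. They mature where they settle and depend on Kit, a receptor tyrosine kinase, and on its ligand, stem cell factor, encoded by Kitl. Antigen bound to IgE on their high-affinity receptor, whose beta chain is encoded by Ms4a2, makes them release the granules. In mice, connective tissue mast cells are known for the chymases Cma1 and Mcpt4, the tryptase Tpsb2 and carboxypeptidase A3 (Cpa3). Mucosal mast cells are known for the chymases Mcpt1 and Mcpt2, and Hdc encodes histidine decarboxylase, which makes histamine.

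These 10 genes were followed in gallbladders of leptin-treated and saline-treated obese mice. The mice were females of strain B6.V-Lep ob, whose mutated leptin gene leaves them without functional leptin in both treatments. The study had 24 mice that arrived aged 7 weeks and acclimated for 1 week. Of these, 12 had daily intraperitoneal leptin for 4 weeks, at 5 µg for each g they weighed, and 12 had saline instead, and gallbladders were taken after an overnight fast at 12 weeks of age. RNA came from pools of 3 whole gallbladders, 4 pools for leptin (numbered 5 to 8) and 4 for saline (numbered 1 to 4), with 1 Affymetrix whole-genome mouse array per pool. Every probe set annotated with exactly 1 of the 10 symbols was taken, which gave 17 of the array's 45101 probe sets. Values are MAS 5.0 signals, a linear 1-colour intensity. Probe sets of 1 gene, or of different genes, have no common scale, so levels are compared only within a probe set; where signals of a marker list are summed, the sum sets the same probe sets against each other between pools and weighs the bright ones most. In such bulk RNA, more mast cells and more of a transcript per mast cell cannot be told apart.

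Kit, Cpa3 and Cma1 rose with leptin, by 1.55-fold to 1.76-fold on the scale of log2(signal + 8.2). Each of these calls was lost under some other ways of processing, given with the values. Tpsb2 had a similar difference that did not pass the threshold. Mcpt2, Mcpt4 and the 4 Kitl probe sets did not pass it either, and the other 7 probe sets were too dim to be tested, among them all those of Ms4a2, Hdc and Mcpt1. Nothing was called lower.

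Upstream sequences are shown for Cpa3 and Cma1, which rose, and for Mcpt1 and Mcpt4, the paralogues of Cma1 whose windows are most alike. They run from 250 bases before to 50 bases after the gene start, 5′ to 3′ on the gene's strand, from RefSeq (GRCm38.p6), which held 8 of the 10 genes. Capitals mark the GATA motif, searched on both strands in its 4 spellings, which are TGATAA, the same hexamer ending in G (TGATAG), the form that begins with A (AGATAA) and that form ending in G (AGATAG). Mast cell genes are known to be regulated by GATA factors. Cpa3 lies at chr3:20242132-20242431 on the minus strand, Cma1 at chr14:55944626-55944925 on the minus strand, Mcpt4 at chr14:56062261-56062560 on the minus strand and Mcpt1 at chr14:56017714-56018013 on the plus strand.
Cpa3: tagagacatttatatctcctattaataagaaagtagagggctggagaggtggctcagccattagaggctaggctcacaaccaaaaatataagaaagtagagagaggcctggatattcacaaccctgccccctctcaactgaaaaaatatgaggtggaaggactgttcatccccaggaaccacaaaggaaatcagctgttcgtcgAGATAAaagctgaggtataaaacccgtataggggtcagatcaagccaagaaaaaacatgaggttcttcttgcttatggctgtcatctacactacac
Cma1: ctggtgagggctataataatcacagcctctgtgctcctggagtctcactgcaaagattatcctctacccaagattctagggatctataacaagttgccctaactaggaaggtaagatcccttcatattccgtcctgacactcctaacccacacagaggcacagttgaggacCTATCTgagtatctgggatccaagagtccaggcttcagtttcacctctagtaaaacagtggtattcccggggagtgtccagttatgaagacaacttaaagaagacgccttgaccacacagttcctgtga
Mcpt1: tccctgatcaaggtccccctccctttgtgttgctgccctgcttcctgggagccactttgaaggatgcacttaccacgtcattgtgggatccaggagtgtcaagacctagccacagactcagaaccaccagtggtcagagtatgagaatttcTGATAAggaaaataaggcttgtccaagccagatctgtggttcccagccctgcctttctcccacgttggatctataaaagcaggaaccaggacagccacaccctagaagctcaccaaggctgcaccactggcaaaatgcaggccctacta
Mcpt4: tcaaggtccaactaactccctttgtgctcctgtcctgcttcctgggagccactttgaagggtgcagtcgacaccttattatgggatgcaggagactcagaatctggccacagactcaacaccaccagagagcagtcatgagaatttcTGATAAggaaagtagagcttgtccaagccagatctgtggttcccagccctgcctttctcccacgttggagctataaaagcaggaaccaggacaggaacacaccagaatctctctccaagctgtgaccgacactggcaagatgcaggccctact

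The motif occurred in 6 of the 8 promoters, against 30.2% of the 27025 promoters in the table. It began at position -46 from the start in Cpa3, -79 in Cma1, -99 in Mcpt1 and -103 in Mcpt4. Ms4a2 held 3 matches and Hdc 1, and the Kit and Kitl windows held no match. The E-box, searched as the palindrome CACGTG and as the variant spelled CATGTG on both strands, is a motif of the mast cell factor Mitf and was in 0 of the 8 windows and in 20.5% of all promoters. The Mcpt1 and Mcpt4 windows were identical at 254 of 312 aligned positions (81.4%), including the motif, while the other pairs among the 8 genes ranged from 43.6% to 53.4%. A match is a stretch of letters and was not tested for binding. In GRCm38.p6 the genes Cma1, Mcpt1, Mcpt2 and Mcpt4 lie in this order on chromosome 14, next to Mcpt8, Ctsg and a run of granzymes.

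Of the 17 probe sets, 10 lay above background in all 8 pools. Background was a signal of 46.0, the 95th percentile of 27 control probe sets for bacterial sequences. The same 10 passed the filter on dim probe sets and were tested by limma with Benjamini-Hochberg adjustment over 22519 probe sets at a threshold of 0.05. Of these 10, 3 were called, all higher with leptin. Over the whole array 6.93% of tested probe sets were called, 3.54% higher and 3.39% lower. Unadjusted p was under 0.05 for 4 of the 10. The share of all tested probe sets with such a p was not counted, here or beside the like counts further on. In this fit it is at least the 6.93% that were called. The median log2 fold change of the 10, leptin minus saline, was 0.28, against 0.04 over all tested probe sets. All 4 leptin pools lay above all 4 saline pools in 4 of the 10, against a background of 8.12% of tested probe sets, and none had all leptin pools below (background 7.4%). The difference was positive in 8 of the 10, against 54.9% of tested probe sets.

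Kit, the receptor for stem cell factor, had the largest tested difference (probe set 1452514_a_at). Its signal was 162.0, 162.8, 147.0 and 159.3 in leptin pools 5 to 8, against 77.5, 88.1, 97.9 and 81.2 in saline pools 1 to 4. The leptin pools lay close together and none overlapped a saline pool. Kit averaged 158 ± 7.34 with leptin and 86.2 ± 8.97 with saline (SD, n = 4 each), a log2 fold change of 0.82 ± 0.19 (SE; 95% interval 0.40 to 1.24; limma adjusted p = 0.025).

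Cpa3 encodes the granule carboxypeptidase that trims peptides after the chymases have cut them. It measured 292.5, 291.4, 328.3 and 308.1 in leptin pools 5 to 8, against 152.6, 234.2, 211.2 and 171.9 in saline pools 1 to 4. The saline pools were the more scattered, with pool 1 lowest, and the groups did not overlap. The means were 305 ± 17.3 with leptin and 192 ± 37.0 with saline (SD, n = 4 each), a log2 fold change of 0.66 ± 0.16 (SE; 95% interval 0.31 to 1.01; limma adjusted p = 0.0299).

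Cma1 encodes the alpha-chymase of connective tissue mast cells. Its signals were 287.0, 223.6, 336.3 and 276.9 in leptin pools 5 to 8, against 186.8, 203.7, 139.1 and 181.8 in saline pools 1 to 4. Leptin pool 6 came nearest to the saline range but stayed above it. Cma1 averaged 281 ± 46.2 with leptin and 178 ± 27.5 with saline (SD, n = 4 each), a log2 fold change of 0.63 ± 0.18 (SE; 95% interval 0.25 to 1.02; limma adjusted p = 0.0482).

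Tpsb2 encodes the main tryptase of connective tissue mast cells. Its brighter probe set (1422180_a_at) gave 171.0, 124.8, 154.1 and 136.5 in leptin pools 5 to 8, against 80.0, 89.8, 98.8 and 96.5 in saline pools 1 to 4. The groups did not overlap, but the adjusted p missed the threshold. The log2 fold change was 0.63 ± 0.20 (SE; 95% interval 0.19 to 1.07; limma adjusted p = 0.0819), with means of 147 ± 20.2 with leptin and 91.3 ± 8.43 with saline (SD, n = 4 each).

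**Figure D1:**
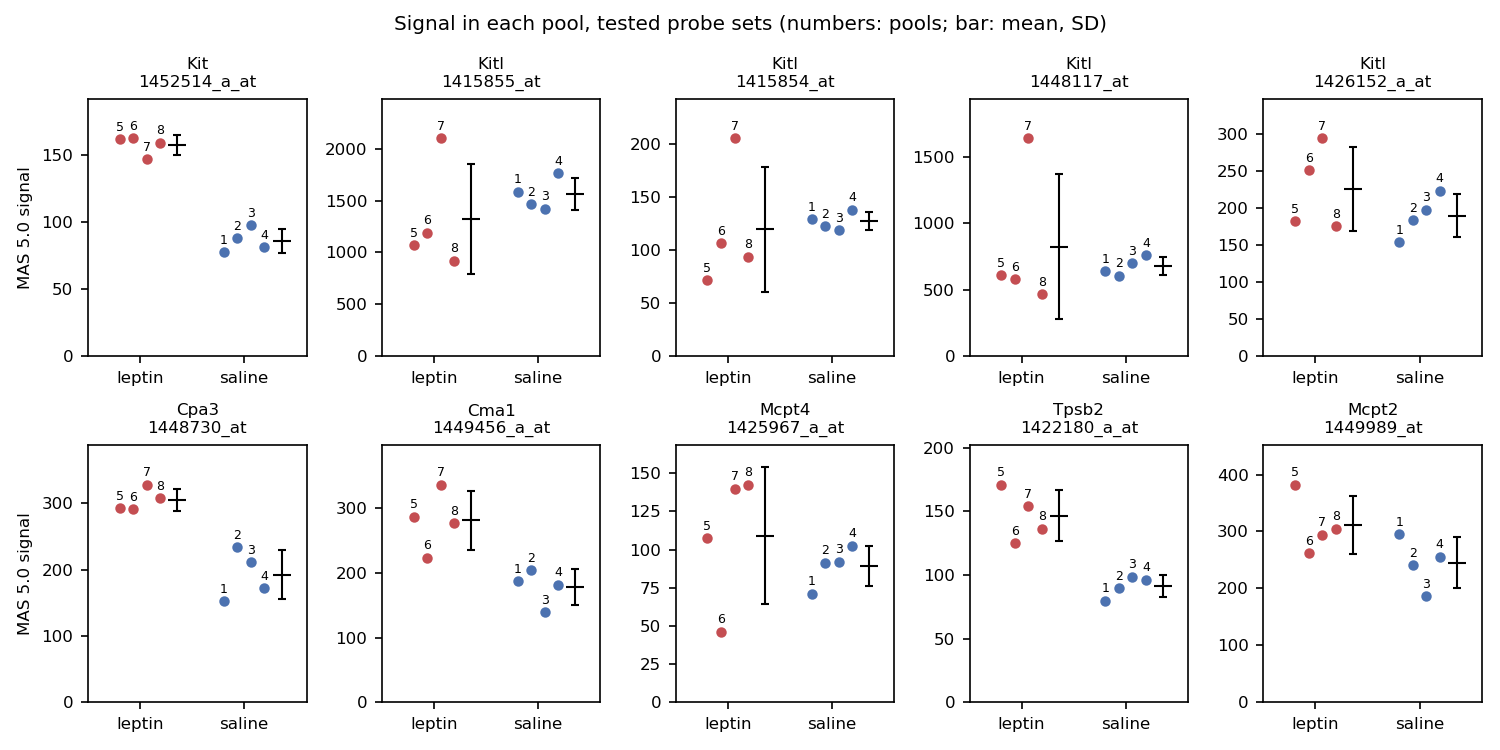
MAS 5.0 signal (linear scale, each panel with its own axis) of the 10 tested probe sets in the 4 leptin and 4 saline pools, with points for single pools and bars for the mean and SD. Leptin pools of Kit, Cpa3, Cma1 and Tpsb2 lie above every saline pool, and leptin pool 7 stands high in the Kitl panels.

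The calls of Kit, Cpa3 and Cma1 depended on the processing, while their direction did not. All were lost with quantile scaling, with cyclic loess scaling, with each array centred on its median, without a filter, and with the actin 3′ to 5′ ratio as a covariate. The log2 fold changes of Kit, Cpa3 and Cma1 were 0.70, 0.60 and 0.75 with the actin covariate, the same as reported without a filter, and 0.57, 0.41 and 0.38 with median centring, which lowered those of Cpa3 and Cma1 by over 1.5 times. Over the 8 fits that left out 1 pool, Kit was called in 2 (limma adjusted p from 0.0332 to 0.0628), Cpa3 in 2 (0.0322 to 0.0777) and Cma1 in 1 (0.0447 to 0.11). Leaving out saline pool 1, saline pool 4, leptin pool 5 or leptin pool 8 left 0 of the 10 called. Their log2 fold changes were positive in all 19 other fits that tested them, as were those of Tpsb2.

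**Figure D2:**
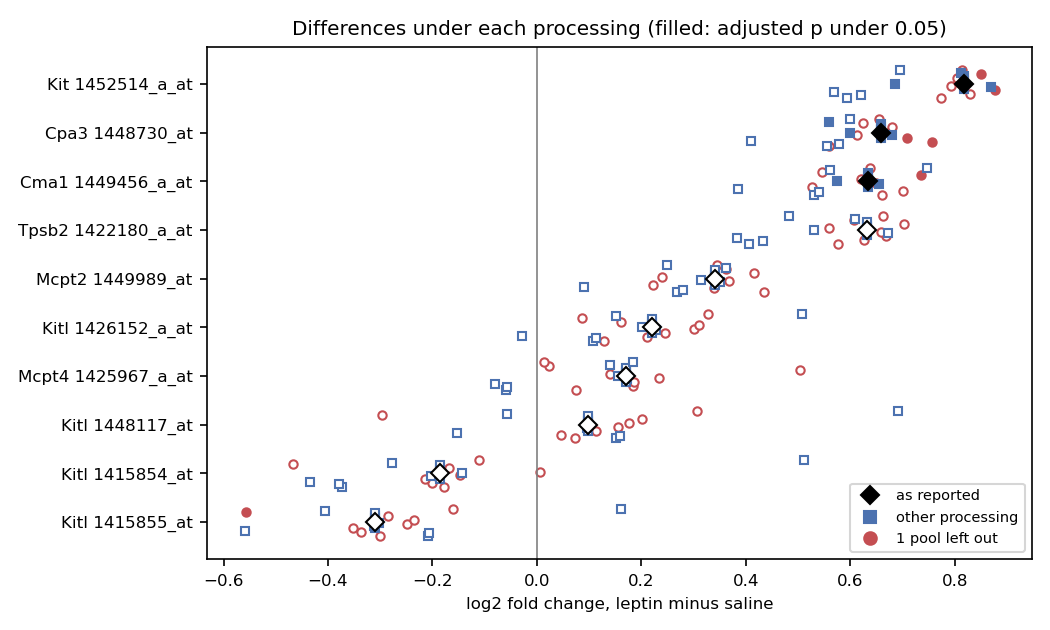
Log2 fold change (leptin minus saline, horizontal axis) of the 10 tested probe sets under each way of processing the signals. Points are filled where the limma adjusted p was under 0.05. Every point of Kit, Cpa3, Cma1 and Tpsb2 lies to the right of 0, while points of Kitl and Mcpt4 lie on both sides. Most points of Kit, Cpa3, Cma1 and Tpsb2 in the fits that leave out 1 pool are open.

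Some measures of the arrays stood apart between treatments without passing the threshold after adjustment. The median signal was 98.9 ± 5.74 in leptin pools and 81.8 ± 4.18 in saline pools, and 69.4% ± 1.10 of probe sets were above background with leptin, against 64.9% ± 1.49 with saline (SD, n = 4 each). In both, all leptin pools lay above all saline pools. The exact permutation p was 0.0286 for both, the smallest that 4 against 4 pools allow, and 0.0715 after adjustment over 5 measures. These 5 include the trimmed mean signal, which scaling had made alike on all arrays. With 2 measures at the smallest p and the others above it, an adjusted p under 0.05 could not arise. The actin 3′ to 5′ ratio, a measure of RNA integrity, was 1.89 ± 0.207 with leptin and 1.60 ± 0.0882 with saline (SD, n = 4 each; exact permutation p = 0.0571, adjusted 0.0952). The GAPDH 3′ to 5′ ratio was 0.818 ± 0.0248 with leptin and 0.813 ± 0.0409 with saline (SD, n = 4 each; exact permutation p = 0.857). Centring arrays on their median lowered the leptin minus saline differences by about 0.25 on the log2 scale. Calls over the whole array then numbered 406 higher and 3586 lower, against 798 higher and 763 lower as reported. The part of these measures in the differences of the 10 genes was not tested.

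Mcpt2, a mucosal mast cell chymase, measured 382.3, 262.5, 294.3 and 305.2 in leptin pools 5 to 8, against 295.3, 241.1, 187.0 and 255.6 in saline pools 1 to 4. The groups overlapped, since saline pool 1 lay above leptin pools 6 and 7. The log2 fold change was 0.34 ± 0.17 (SE; 95% interval -0.03 to 0.72; limma adjusted p = 0.261).

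Mcpt4 encodes the mouse chymase usually set beside human chymase in function. It gave 107.7, 46.3, 139.9 and 142.6 in leptin pools 5 to 8, against 71.3, 91.5, 92.1 and 102.6 in saline pools 1 to 4. Leptin pool 6 was the lowest of all 8 pools and the groups overlapped. The log2 fold change was 0.17 ± 0.32 (SE; 95% interval -0.53 to 0.87; limma adjusted p = 0.796), an interval that includes the differences of Cma1 and Tpsb2. Its sign was negative under quantile scaling, cyclic loess scaling and median centring.

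Stem cell factor was read by 4 Kitl probe sets. The brightest (1415855_at) measured 1072.1, 1188.6, 2103.1 and 918.8 in leptin pools 5 to 8, against 1587.1, 1467.6, 1421.2 and 1764.8 in saline pools 1 to 4. Leptin pool 7 was the highest of all pools, and the other 3 leptin pools lay below every saline pool. With all pools the log2 fold change was -0.31 ± 0.20 (SE; 95% interval -0.75 to 0.13; limma adjusted p = 0.392). Without leptin pool 7, where 3.19% of tested probe sets were called lower, it was -0.56 (limma adjusted p = 0.0248), the one fit of this probe set past the threshold among adjusted p from 0.0248 to 0.764 over 20 alternatives.

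The other Kitl probe sets shared the high leptin pool 7 but not 1 direction. Probe set 1415854_at gave 71.8, 106.7, 206.0 and 94.0 in leptin pools 5 to 8, against 129.2, 122.8, 119.2 and 138.3 in saline pools 1 to 4. Probe set 1448117_at gave 609.6, 578.8, 1642.6 and 464.5 with leptin, against 641.2, 605.4, 698.0 and 760.1 with saline. In both, pool 7 was the highest of all 8 pools; the other leptin pools were all below saline in 1415854_at and overlapped it in 1448117_at. Probe set 1426152_a_at ranged from 175.6 to 294.9 with leptin and from 153.7 to 223.9 with saline, and the groups overlapped. The log2 fold changes were -0.18 ± 0.28, 0.097 ± 0.30 and 0.22 ± 0.20 (SE), with limma adjusted p of 0.732, 0.878 and 0.537.

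Signals in leptin pool 7 were 1.98, 2.27, 2.98 and 1.45 times the mean of the other 3 leptin pools for 1415855_at, 1415854_at, 1448117_at and 1426152_a_at. Over all tested probe sets, 8.49% had leptin pool 7 over 1.5 times that mean and 1.79% over 2 times. Kit itself was not high in that pool, at 0.911 times the mean of the other leptin pools, and Cpa3 stood at 1.1 times.

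**Figure D3:**
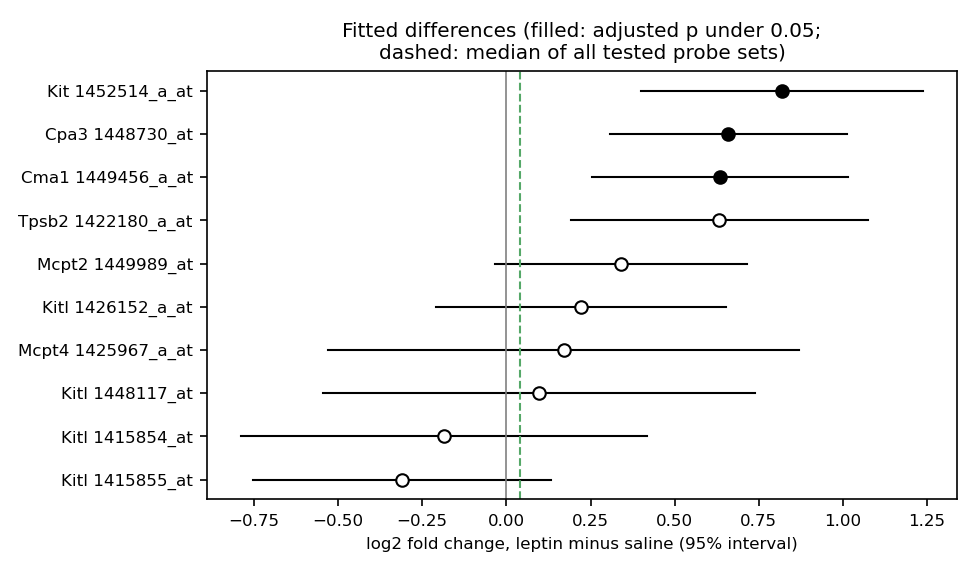
Log2 fold change (leptin minus saline, horizontal axis) of the 10 tested probe sets with its 95% interval from limma, from all 8 pools. The intervals of Kit, Cpa3, Cma1 and Tpsb2 lie to the right of 0, while those of Mcpt2, Mcpt4 and the 4 Kitl probe sets cross it.

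Below the filter, Mcpt1 was the clearest of the 7 untested probe sets. This chymase is released into blood by mucosal mast cells. It gave 61.7, 57.9, 117.9 and 82.2 in leptin pools 5 to 8, all above background, against 32.4, 9.0, 55.8 and 12.9 in saline pools 1 to 4, of which 3 were under background. All leptin pools lay above all saline pools, as in 6.77% of all probe sets other than controls; the opposite order, found in 4.07% of them, occurred in none of the 17. With the saline pools under background set at it, leptin was at least 1.59-fold higher. In a fit without the filter the limma adjusted p was 0.142.

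Ms4a2, the beta chain of the IgE receptor, was mostly at background. Probe set 1421475_at had 36.2, 9.6, 21.1 and 99.4 in leptin pools 5 to 8, against 7.0, 9.2, 6.1 and 57.9 in saline pools 1 to 4, and 1443264_at had 9.2, 12.2, 180.1 and 42.5 with leptin, against 14.9, 23.0, 18.7 and 21.3 with saline. The groups overlapped in both, and the pool that stood high was pool 8 in the first and pool 7 in the second. Histidine decarboxylase, Hdc, was under background in all 8 pools with both of its probe sets, which reached at most 44.3 with leptin and 29.6 with saline.

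A second, dim probe set existed for Kit and for Tpsb2. Kit 1415900_a_at measured 70.4, 9.0, 43.0 and 83.4 in leptin pools 5 to 8, against 10.5, 74.9, 24.3 and 38.8 in saline pools 1 to 4. Tpsb2 1451802_at measured 13.4, 41.6, 30.6 and 73.4 with leptin, against 8.9, 11.7, 14.1 and 15.5 with saline. Most of these values were under background and the groups overlapped in both. Counted over all 17 probe sets, leptin pool 7 was highest in 8 and saline pool 1 lowest in 6, and no saline pool was highest in any. The like counts over the whole array were not taken. Of all arrays, leptin pool 7 also had the highest median signal (107.0) and saline pool 1 the lowest (77.8).

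**Figure D4:**
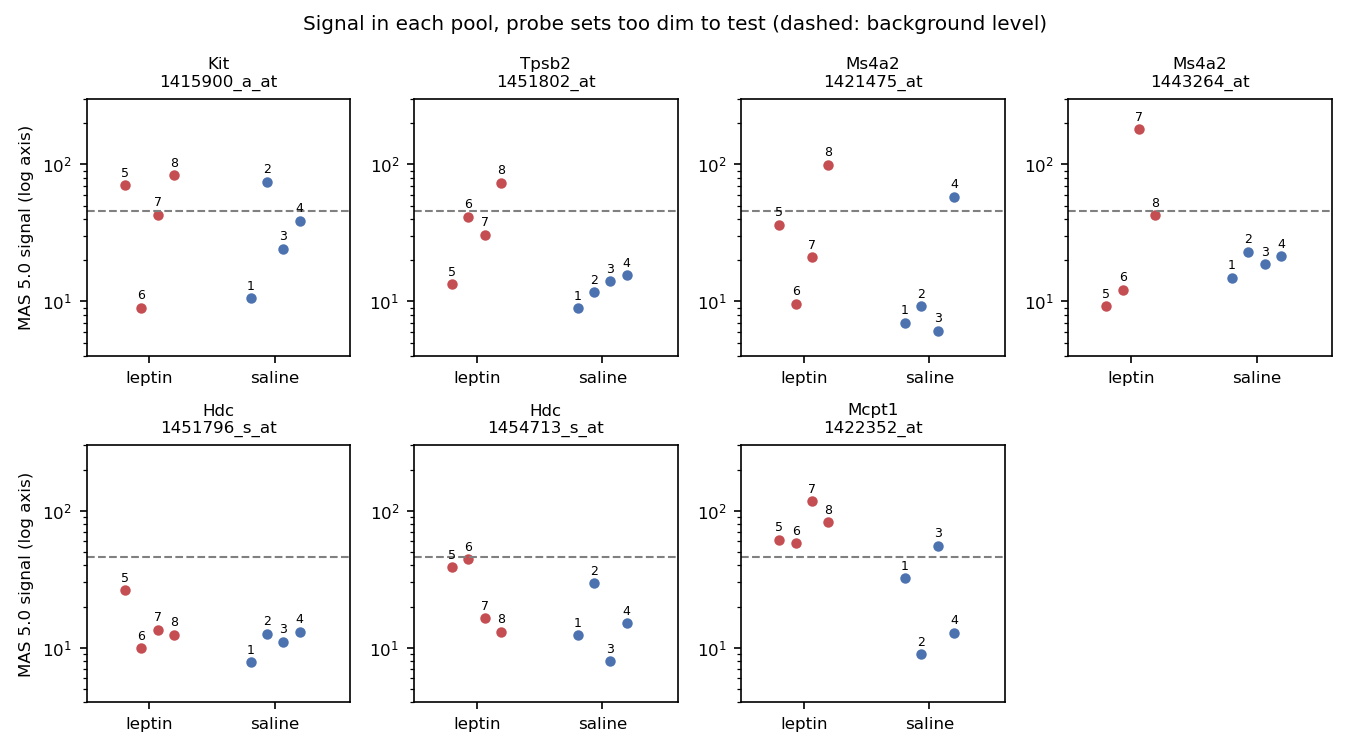
MAS 5.0 signal of the 7 untested probe sets in the leptin and saline pools, on a log axis with the same limits in every panel. A dashed line marks the background signal of 46.0. Mcpt1 is the one panel in which all leptin pools lie above the line and above all saline pools, while both Hdc panels stay under it.

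Other genes of mast cells were read from lists, each gene by its brightest probe set, where 8.27% of 11718 genes were called, 4.29% higher and 3.98% lower. Differences are log2 fold changes with their SE. Of 10 tested further mast cell genes, 5 rose and none fell by limma adjusted p. Gata2, Mitf, Ndst2, Ptger3 and Maob were not called. Below the filter, all leptin pools of Tph1 lay below all its saline pools, and those of Adora3 above. Such orders occurred in 4.07% and 6.77% of all probe sets other than controls. The groups overlapped in the other genes of the list below the filter, Fcer1a, Mrgprb1, Slc18a2, Hpgds, Cyp11a1, Tpsab1, Tpsg1 and Cd200r3. Tph1 measured 22.3, 11.1, 5.9 and 10.8 in leptin pools 5 to 8, all under background. Its saline pools 1 to 4 gave 80.2, 28.5, 34.8 and 71.2, of which 28.5 and 34.8 were under background too. Rgs13, a regulator of G-protein signalling found in mast cells and germinal centre B cells, measured 368.7, 283.8, 321.4 and 298.0 in leptin pools 5 to 8, against 103.4, 83.2, 100.4 and 138.3 in saline pools 1 to 4. The groups lay far apart, with a log2 fold change of 1.52 ± 0.18 (SE; limma adjusted p = 0.000355). Ltc4s, which makes leukotriene C4, measured 204.7, 116.4, 239.3 and 148.0 in leptin pools 5 to 8, against 71.7, 66.5, 31.5 and 35.2 in saline pools 1 to 4. Its saline pools 3 and 4 were under background. With them set at it, the geometric mean of plain signals with leptin was at least 3.02 times that with saline, a ratio without an interval. In the fit the limma adjusted p was 0.00847. Its saline mean lay below the filter, so it was tested through its leptin pools and dropped out of 2 of the 8 fits without a pool, and 4 genes rose without counting it. Serglycin (Srgn), the proteoglycan that holds granule proteases, differed by 0.90 ± 0.11 (limma adjusted p = 0.00036). Alox5ap and Alox5, the first steps of leukotriene synthesis and shared with other myeloid cells, differed by 1.05 ± 0.15 and 1.00 ± 0.21. Maob, among the brightest of the list, differed by -0.20 (limma adjusted p = 0.628).

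The IgE receptor and its signalling had 2 of 12 tested genes higher and none lower. Fcer1g, the gamma chain that several immune receptors share, differed by 1.39 ± 0.21 (limma adjusted p = 0.00165), and Syk, the kinase it recruits, by 1.30 ± 0.26 (limma adjusted p = 0.0108). Fcer1a, the chain that binds IgE, was below the filter, at 75.2 ± 23.0 with leptin and 62.3 ± 13.3 with saline (SD, n = 4 each). Among 17 tested genes of Kit signalling, 1 rose, the kinase Fer (0.69 ± 0.17, limma adjusted p = 0.029). Ptpn11, the phosphatase downstream of Kit, differed by -0.37 ± 0.13 (limma adjusted p = 0.111), and was called lower with median centring (-0.62, limma adjusted p = 0.00862) and without leptin pool 7 (-0.48, limma adjusted p = 0.0351).

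Of 9 tested genes for mast cell growth and recruitment factors and their receptors, 3 rose, all receptor chains. Csf2rb, the common beta chain for IL-3, IL-5 and GM-CSF, differed by 1.25 ± 0.20, Csf2rb2, the mouse IL-3 beta chain, by 1.36 ± 0.24, and Il7r by 1.10 ± 0.25 (limma adjusted p = 0.00269, 0.00511 and 0.022). The saline means of Csf2rb2 and Il7r lay below the filter, so both were tested through their leptin pools, and 1 saline pool of Il7r was under background (44.5). Of the histamine genes 0 of 3 were called by limma and 0 had an unadjusted p under 0.05. Hnmt, which methylates histamine, differed by -0.32 ± 0.16, and Aoc1, which oxidises it, by 0.60 ± 0.28. With median centring Hnmt was called lower (-0.57, limma adjusted p = 0.043). Of the other chymase, tryptase and granzyme genes, 2 of 17 passed the filter, Gzmk and Prss29, and 0 were called or had an unadjusted p under 0.05. Serpina3n, an inhibitor of serine proteases, rose by 0.70 ± 0.15 (limma adjusted p = 0.018), alone among 4 tested protease inhibitors. Serpinb6a and Serpinb1a were called lower with median centring alone of the scalings, at -0.51 and -0.63, against -0.26 ± 0.11 and -0.38 ± 0.12 as reported (limma adjusted p = 0.157 and 0.0734). When each pool was left out in turn, Fer was called in 3 of 8 fits, Il7r in 6 (not without saline pool 4 or leptin pool 5) and Serpina3n in 5 (not without saline pool 2, leptin pool 6 or leptin pool 8). Fer lost the call without saline pool 1, saline pool 2, leptin pool 5, leptin pool 6 or leptin pool 7. Rgs13, Srgn, Alox5ap, Alox5, Fcer1g, Syk, Csf2rb and Csf2rb2 were called in all 8.

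Markers of leukocytes in general, most of those of macrophages and 4 of 7 tested ones of neutrophils rose with leptin as well. Those of T and NK cells were not called. All 9 tested general leukocyte markers rose, with a median log2 fold change of 1.50, and their summed signal was 5392.4 to 6400.4 in leptin pools, against 1584.3 to 2056.5 in saline pools. Macrophage markers rose in 12 of 14, with sums of 12985.2 to 16045.4 with leptin and 6431.7 to 7839.6 with saline. Selplg of the general markers and Itgam of the macrophage markers passed the filter through their leptin pools. Neutrophil markers rose in 4 of 7 tested, with sums of 4095.7 to 6938.2 with leptin and 869.2 to 1447.2 with saline, though Camp and Cxcr2 were under background in all pools. Ltf and S100a8 made up 68.5% of the gap between these mean sums. Ngp, above background in all pools, measured 136 ± 33.1 with leptin and 134 ± 19.8 with saline (SD, n = 4 each; limma adjusted p = 0.999). Mmp8 and Mmp9 were not called, and Mpo and Elane were below the filter. Of 3 tested T and NK cell markers 0 were called by limma and 2 had an unadjusted p under 0.05, with sums of 871.1 to 1261.5 with leptin and 632.5 to 865.0 with saline. Klrd1, 1 of these 2, passed the filter through its leptin pools, and its saline pool 4 was under background (38.9). The further mast cell genes summed to 6338.9 to 7408.6 with leptin and 4004.5 to 5175.8 with saline, and Srgn and Alox5ap made up 80.0% of the gap between the mean sums. Several genes named above, Fcer1g, Syk and Alox5ap among them, are also made by myeloid cells, and the part of these cells in their differences was not tested. With the actin ratio as a covariate Rgs13 and Srgn were still called, and Ltc4s, Alox5ap, Alox5, Fcer1g, Syk, Fer, Csf2rb, Csf2rb2, Il7r and Serpina3n were not, while 6 general leukocyte markers and 6 macrophage markers were. With the covariate the differences were 1.76 for Ltc4s, 1.06 for Alox5, 0.78 for Fer, 1.22 for Syk and 1.04 for Il7r. Those of Fcer1g, Csf2rb and Csf2rb2 were 1.20, 1.06 and 1.14, and those of Alox5ap and Serpina3n 0.75 and 0.48. The ratio itself averaged higher with leptin, and its part in these differences was not tested. Fer and Il7r were not called with quantile or cyclic loess scaling, nor Fer and Serpina3n with median centring.

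Cells that share single genes with mast cells were checked in the same way. Basophil markers summed to 258.0 to 471.4 with leptin and 222.9 to 336.3 with saline, which overlap. Itga2b, also made by platelets, held 51.5% of that signal, Cd200r3 was under background in all pools, and Mcpt8, the basophil protease, was under background in 7 of 8 pools. Kit is also made by interstitial cells of Cajal and by melanocytes. Of 4 tested Cajal cell markers and 5 tested melanocyte markers, 0 were called by limma and 0 had an unadjusted p under 0.05. Ano1, the chloride channel of Cajal cells, differed by 0.14 (limma adjusted p = 0.679). Kitl is made by fibroblasts, endothelium and epithelium. None of 12 fibroblast and endothelial markers was called by limma, although 5 had an unadjusted p under 0.05, and their sums overlapped between treatments. Of 13 epithelial and muscle markers, Krt7, Krt8 and Krt18 fell by 0.96, 0.58 and 0.35 on the log2 scale. The 13 summed to 62760.2 to 70902.8 with leptin, below the 72489.8 to 82019.4 with saline, and 1 of them had a positive difference. Krt18 was called in 1 of the 8 fits that left out a pool, the one without saline pool 3, and was not called with quantile or cyclic loess scaling. With the actin covariate Krt7 (-0.50), Krt8 (-0.43) and Krt18 (-0.30) were not called, and with median centring 7 of the 13 were called lower.

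**Figure D5:**
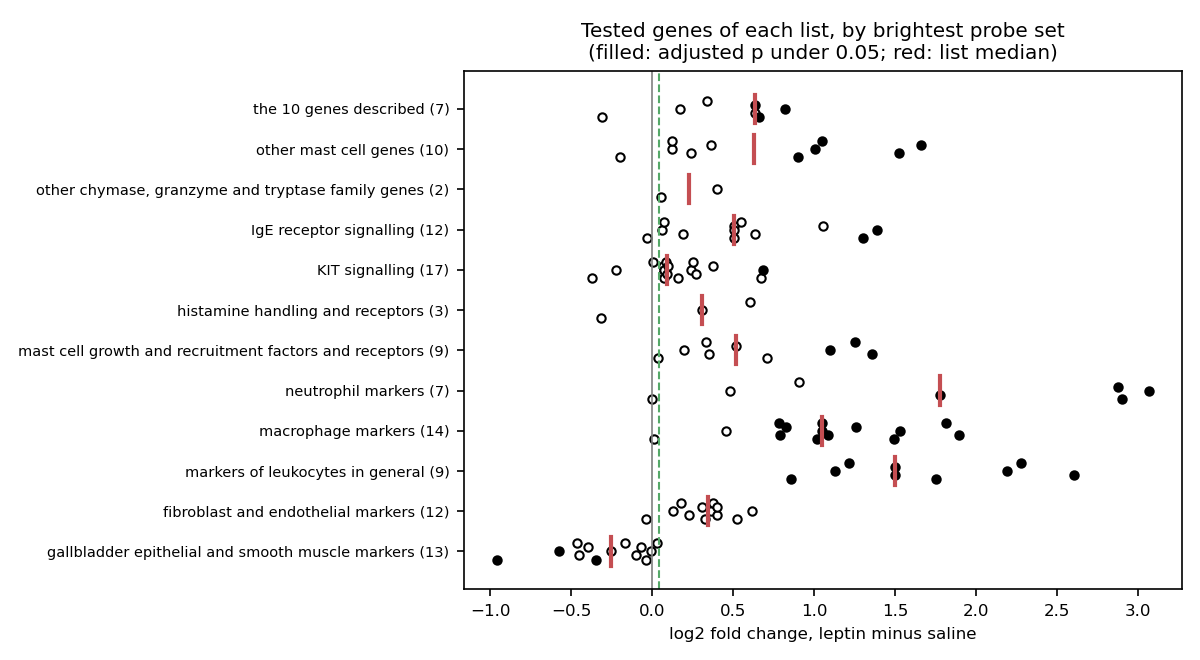
Log2 fold change (leptin minus saline, horizontal axis) of every tested gene of each list shown, by its brightest probe set. Points are filled where the limma adjusted p was under 0.05, and a bar marks each list's median. A solid line stands at 0 and a dashed line at 0.04, the median of all tested probe sets. The median of the further mast cell genes was 0.63, that of general leukocyte markers 1.50 and that of gallbladder markers -0.25.

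Across the 8 pools, the genes nearest to Cpa3 by the root mean square difference of centred log2 values were Gnpda1 (0.112), Trps1 (0.117), Zscan10 (0.118), Stum (0.12) and Zfp953 (0.123), where the median over all 11717 other genes was 0.443. Kit came 34th in that order (0.162), Tpsb2 79th (0.184) and Cma1 518th (0.251). Mcpt4 was at place 7356 and Kitl at place 10172. The genes nearest to Kit were Pigr (0.104), Rftn1 (0.107), Zscan10 (0.117), Marcks (0.119) and Meis3 (0.123). This order includes the leptin difference itself and describes only these 8 pools.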

How the data were processed

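RNA of 8 gallbladder pools, grouped as leptin or saline by the sample labels, was measured on 1 array each. Linear intensities, 1 signal per probe set, were deposited by the authors and come from MAS5 per the submitters' processing notes. No source used here gives scan dates, so no batch could be examined. All arrays had a 2% trimmed mean of 250.001 to 250.002, and a change shared by all transcripts would not be seen after such scaling.

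Signals were rescaled to a common trimmed mean and taken as log2(signal + 8.2), 8.2 being the 10th percentile, which understates folds of dim genes. After leaving out 64 control probe sets, the brighter 22519 by mean log2 value were tested with limma 3.58.1 in R 4.3.3 (lmFit, eBayes with a trend), as a two-sided test, and adjusted over all of them by Benjamini-Hochberg. Array measures were compared by exact permutation over 70 assignments. The fit was tested on simulated data.

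Names came from the array's annotation (34958 probe sets with 1 symbol, 932 with several, 9211 with none), 34754 updated through Entrez identifiers to GRCm38.p6. Probe sequences were not used, so probes shared by near-identical chymases or tryptases could not be looked for. The genes and lists were chosen with earlier results of these data known. By the rule, named genes were the 10 genes with all 17 probe sets, up to 5 called and the 2 brightest genes of each list, and the 5 genes nearest to Cpa3 and to Kit. Some of them are given only as counts. Some other list genes are mentioned besides, Tph1, Adora3 and Ngp among them. Of 219 list symbols besides the 10 genes, the array held 196 under a single symbol, and 132 were tested. Alternatives covered scaling, pseudocount (1 and 32), filter, variance model, array weights, the actin ratio as a covariate, and leaving out each pool. The p-values measure the spread between these pools of gallbladders.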

Additional observations from a re-analysis of the deposited data

Results flagged for a closer look

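In groups of 4 pools, a pool stood apart when its gap to the nearest other pool passed the 95% limit of Dixon's test for that number, on the log2 scale. Chance alone marks about 1 in 20 groups. Among the 10 genes 1 of 34 groups was marked, that of Ms4a2 1421475_at, where saline pool 4 measured 57.9 and the other saline pools lay at 9.2 or less. Over all named genes and array measures 6 of 168 groups were marked. Alox5ap was low in saline pool 1 (418.2), Cd8a high in leptin pool 7 (443.8), Cd34 high in leptin pool 5 (697.6), Krt18 high in leptin pool 8 (7148.3) and Acta2 low in saline pool 1 (11981.3). The number marked was below the chance share.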

How the results depend on the processing

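Of the 10 tested probe sets, 3 were called as reported. The count was 0 with quantile scaling, cyclic loess scaling, median centring, no filter, the 75th percentile filter (which left 3 probe sets tested) and the actin covariate, and 0 to 2 when 1 pool was left out. An unadjusted p was under 0.05 for 3, 3, 3, 6, 0 and 3 probe sets in those 6 fits. With median centring the 3 were those of Kit and Cpa3 and, lower with leptin, Kitl 1415855_at (-0.56), and Cma1 was not among them. Calls over the array were 3992 with median centring, 595 with the actin covariate and 884 to 1431 with a pool left out, against 1561 as reported. The sign turned for Kitl 1415855_at with the actin covariate (0.16), for Kitl 1415854_at with the actin covariate (0.51) and without leptin pool 5 (0.0065; -0.47 to 0.0065 over the fits without 1 pool), for Kitl 1448117_at with median centring (-0.15), array weights (-0.057) and without leptin pool 7 (-0.30; -0.30 to 0.31 over the fits without 1 pool), for Kitl 1426152_a_at with median centring (-0.029), and for Mcpt4 with quantile scaling (-0.059), cyclic loess scaling (-0.057) and median centring (-0.080). No probe set was called with the turned sign, and the causes were not tested. Tpsb2 was called without the mean-variance trend (limma adjusted p = 0.0332) and in no other of the fits. No paired analysis was run because the labels give no pairing of leptin with saline pools. The 7 dim probe sets lie near background, where signal limits what can be seen.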
